A study of Mus musculus with 2 samples.

Results

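Of the 2546 CD8+ T cells kept from a glucose-restricted culture, 690 held at least 1 unique molecular identifier (UMI, the tag that marks 1 captured RNA molecule) of Cox6a2, and these 690 cells, 27.1% of the culture, are described here. They were chosen by that readout: a cell had to belong to the glucose-restricted library, have at least 500 detected genes, have fewer than 10% of UMIs from the mitochondrial genome, and hold 1 or more Cox6a2 UMIs. The 1856 other cells of the same library had 0 Cox6a2 UMIs. The level of Cox6a2 in the members is therefore a description with no test, and the members were set against cells of their own library that were matched to them on UMIs per cell.

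The study profiled effector CD8+ T cells by droplet single-cell RNA sequencing, with 1 library per condition and 5673 kept cells in all. Both libraries came from spleen and lymph node cells of OT-I mice, 8 to 12 weeks old, whose transgenic T cell receptor recognises the ovalbumin peptide SIINFEKL. Cells were activated with that peptide for 48 h with interleukin-2 (100 U/ml) and then held for 20 h in 11 mM glucose (the control) or under transient glucose restriction (TGR) in 1 mM glucose, while the sample descriptions name 3 days of growth before the exposure. The labels do not say how many mice were used or whether CD8+ cells were purified before capture, and every cell of a condition shares 1 library, so the 690 cells are not replicates of the condition.

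Cytochrome c oxidase is complex IV of the respiratory chain and passes electrons to oxygen, and subunit VIa, one of its nuclear-encoded subunits, exists in vertebrates in a pair of isoforms. COX6A1 is the widespread isoform, whereas COX6A2 is the isoform of heart and skeletal muscle, and its transcript is also known from plasmacytoid dendritic cells. Shortage of glucose or amino acids and faults in mitochondria or the endoplasmic reticulum activate the integrated stress response, in which the transcription factor ATF4 and its partner CHOP, the product of Ddit3, raise genes of amino acid supply and stress signalling.

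The kept TGR cells held 19696068 UMIs and the 3127 kept control cells 14730128, and 11 barcode sequences occurred in both libraries, 4 of them with a Cox6a2 UMI in TGR. A UMI of Cd3d, Cd3e, Cd3g, Cd8a or Cd8b1, which encode the T cell receptor's CD3 chains and the CD8 coreceptor, was found in 689 of the 690 members. By a threshold of 1 UMI of these markers, 689 members were thus T cells, as the label has it. The other member is the TGR cell, described below, that had markers of other cell types and no T cell marker. The share among the partners was not computed. Doublets were not called, and all intervals given are 95% exact intervals that cover counting error only.

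In the mouse reference (GRCm38, GENCODE M21), Cox6a2 (ENSMUSG00000030785) spans chr7:128205435-128206387 on the minus strand in 3 exons. It lies inside the integrin gene Itgad on the plus strand, and its last exon overlaps an Itgad exon by 70 bases. Itgad itself had 0 UMIs in the TGR cells and 1 in the control cells. Read in the direction of transcription, the annotated Cox6a2 transcript of 680 bases shares none of its 656 stretches of 25 bases with Cox6a1 or any other annotated gene. Reads of that length and direction therefore separate the isoforms. The opposite strand, where the overlap with Itgad lies, was not compared.

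Cox6a2 transcript was spread unevenly over the TGR cells. The members held 1266 Cox6a2 UMIs together, which made 64.3 CPM (UMIs of the gene per 1000000 UMIs) of the whole TGR library. One Cox6a2 UMI was found in 387 members, 2 in 155, 3 in 78 and 4 in 40, and 30 cells held 5 or more. The 148 members with 3 or more UMIs carried 569 of the 1266 UMIs (44.9%). Within single members the level ran from 27.5 to 1673 CPM with a median of 173 CPM. The cell with the most Cox6a2, 10 UMIs of 6232, was called as G2/M phase, and a cell with 9 UMIs of 5379 gave the highest level.

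In the control library Cox6a2 was close to undetected. It had 1 UMI in each of 2 of 3127 cells (0.064%, interval 0.0077 to 0.23%), cells with 7270 and 9497 UMIs and no Ddit3 UMI. That library has almost no Cox6a2 RNA, so its share does not measure free Cox6a2 RNA in the TGR droplets. Only 1 TGR cell had 3 or more UMIs of B cell, plasma cell, myeloid or dendritic markers and no T cell marker. It held a Cox6a2 UMI and is the 1 member without a T cell marker. With only 1 such cell the background in the TGR library was not measured, and a single UMI may be free RNA rather than the cell's own. After every cell was thinned to 1500 UMIs, 199 of 2546 TGR cells (7.82%, interval 6.80 to 8.93%) and 1 of 3036 control cells (0.033%) still had a Cox6a2 UMI, with 91 control cells left out as too shallow. Median depths before thinning were 6265.5 UMIs in TGR and 4030 in control cells.

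**Figure D1:**
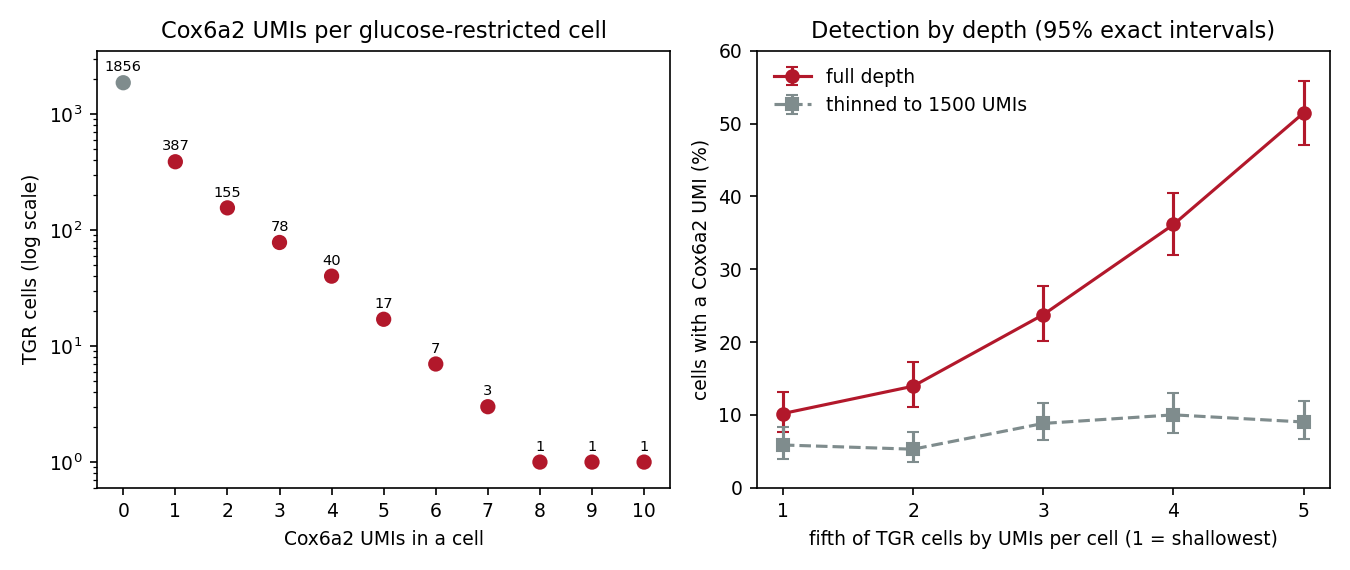
Left, number of TGR cells (log scale) by Cox6a2 UMIs per cell, with the 1856 cells at 0 in grey and the 690 members in red. Right, percent of TGR cells with a Cox6a2 UMI in 5 equal bands of UMIs per cell, at full depth and after thinning every cell to 1500 UMIs, with 95% exact binomial intervals; at full depth it climbs from 10.2% to 51.5%.

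Members were deeper than the other cells. They had a median of 8614.5 UMIs and 2084.5 genes, against 5629.5 UMIs and 1575.5 genes in the 1856 cells without Cox6a2. Just inside the threshold, cells with 1 Cox6a2 UMI had a median of 8249 UMIs, and cells with 2 had 9006. From the shallowest to the deepest of 5 equal bands of UMIs per cell, the share of members was 10.2%, 13.9%, 23.8%, 36.1% and 51.5%. The Cox6a2 level itself was 37.3 CPM in the shallowest band (interval 28.9 to 47.4), 52.0, 67.0 and 82.8 CPM in the next bands and 63.1 CPM in the deepest (57.6 to 68.8). The share thus moved with depth, and the level was lowest in the shallowest band. Some of the cells at 0 UMIs may have held the transcript below detection.

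Few genes of like abundance were as uneven, which is a description of the counts that chose the members. Among the 633 other genes with 1013 to 1517 UMIs in the TGR library, within 20% of Cox6a2, the median gene was found in 873 cells, and Cox6a2 in 690. Only 3 of these genes (0.474%) were found in fewer cells: Cenpf, a kinetochore protein of dividing cells (557 cells), Cdkn1a, the cell cycle inhibitor p21 (642 cells), and Ero1l, an oxidase of the endoplasmic reticulum (676 cells). The ratio of variance to mean over cells was 2.2 for Cox6a2 and 1.23 for the median gene. With the spread of UMIs per cell allowed for, the ratio was 2.02 for Cox6a2 and 1.07 for the median gene, and only Cenpf (2.49) and Cdkn1a (2.21) were higher.

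**Figure D2:**
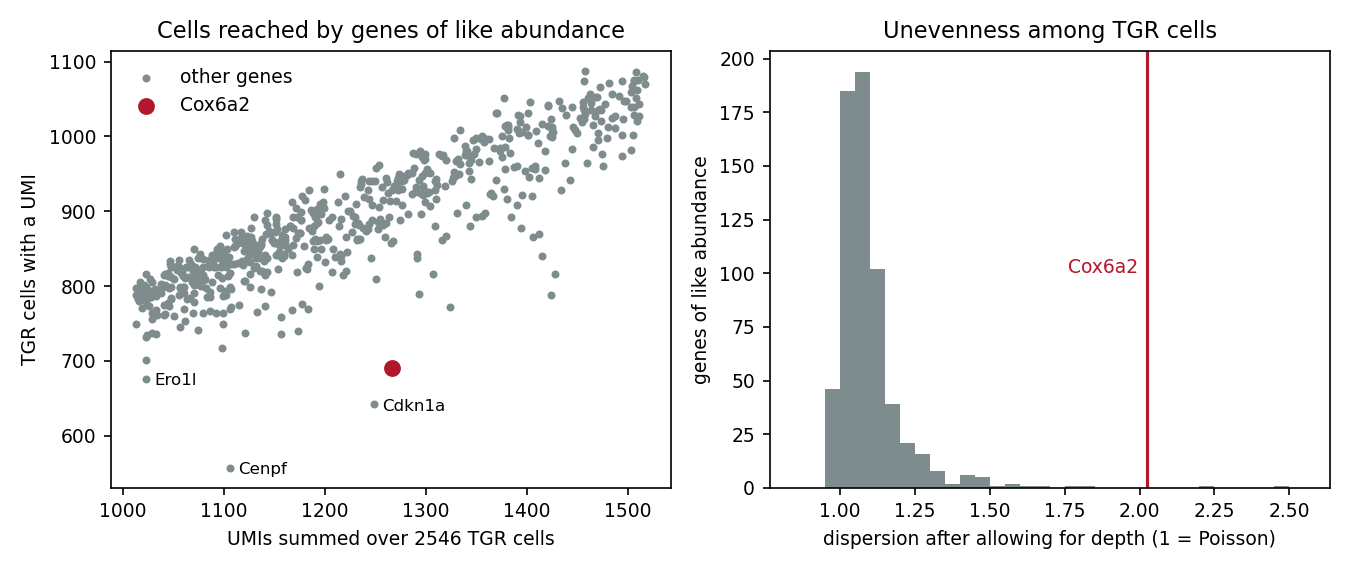
Left, number of TGR cells with a UMI of a gene against its summed UMIs, for Cox6a2 (red) and 633 genes of like abundance (grey); only Cenpf, Cdkn1a and Ero1l reached fewer cells. Right, histogram of the depth-adjusted dispersion of the same genes, with Cox6a2 at 2.02 (red line).

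Members occurred in every phase of the cell cycle and in every cluster of the library. Cox6a2 stood at 57.2 CPM (interval 52.3 to 62.5) in cells called G1, 67.5 CPM (56.8 to 79.6) in S and 70.2 CPM (64.8 to 75.9) in G2/M. The G1 and G2/M intervals did not overlap, while that of S overlapped both. They cover counting error only and are too narrow for a gene as uneven as Cox6a2 (depth-adjusted ratio of variance to mean 2.02). The share of members was 21.6%, 26.1% and 34.9% in these phases, whose median depths were 5377, 6297 and 7778 UMIs. With every cell thinned to equal depth, the shares were 6.90% in G1 (5.60 to 8.41%), 6.51% in S (3.84 to 10.2%) and 9.41% in G2/M (7.64 to 11.4%). These intervals overlapped, so a difference between phases was not clear.

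Clustering of the TGR cells without Cox6a2 gave 5 clusters, and the gene was highest in the mitotic one. That cluster, led by Birc5, Hmmr and Cenpf, held 83.0 CPM of Cox6a2 (interval 74.6 to 92.1), and 193 of its 573 cells were members (33.7%). The cluster led by the stress genes Hspa1a, Mt2 and Mt1 held 68.6 CPM (59.6 to 78.5), with 106 of 459 cells as members (23.1%). Its interval overlapped that of the mitotic cluster. The clusters led by Rtp4, Isg15 and Ly6c2 (57.8 CPM), by Hnrnpa0, E2f2 and Incenp (58.6 CPM) and by Ung, Srm and AA467197 (52.9 CPM) had overlapping intervals. The deepest cluster, that of Hnrnpa0 with a median of 11881 UMIs, had the largest share of members, 41.5% of 492 cells. No cluster was without members, and the level ranged from 52.9 to 83.0 CPM.

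To ask what else differed in these cells, each member was paired with the cell of 0 Cox6a2 UMIs that had the nearest number of other UMIs, each such cell being used once. The 690 pairs had median totals of 8613.5 and 8600.5 UMIs, and 484 pairs lay within 5% of each other. Deep negative cells ran short, so the summed totals were 7098810 UMIs for the members and 6651850 for their partners. Genes of the mitochondrial genome made up 2.55% of UMIs in the median member and 2.49% in the median partner, and ribosomal protein genes 50.3% and 50.5% of the summed UMIs. A ratio is the members' CPM over the partners', with Cox6a2 left out of the totals and 0.5 UMI added to each side, and its interval comes from the split of the gene's UMIs between the sets. With 1 library there is no test, and a gene was counted as higher or lower at 1.5 times or more with an interval that excluded 1.

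Few genes other than Cox6a2 differed by 1.5 times between members and partners. Of 4317 genes with at least 20 CPM in either set, 7 were higher in members (0.162%) and 3 lower (0.0695%), and the median log2 ratio was 0.0008. The 7 were Gm15417, Galnt12, Gm867, Adora2a, Raph1, Ctr9 and Ckap2l, and the 3 were Iigp1, Hemk1 and Fam183b, all but Ckap2l named after their values were seen, and none above 50 CPM. All 7 and 2 of the 3 (Hemk1 and Fam183b) reached 20 CPM only in the set where they were higher, so the minimum itself favoured a difference. With the minimum set on the mean of both sets, an alternative added after seeing the data, 1 of 4153 genes was higher (Ckap2l) and 2 were lower (Iigp1 and Hemk1). The counts were 30 and 32 in the 484 pairs within 5% of each other, 42 and 25 for members with 2 or more Cox6a2 UMIs and 107 and 94 with all cells thinned to 2000 UMIs. At the smaller threshold used for members of gene lists, one set at least 25% above the other with an interval that excluded 1, 88 genes were higher (2.04%) and 83 lower (1.92%), and 68 and 69 with the minimum on the mean of both sets.

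Iigp1, an interferon-induced GTPase, was the only one of the 10 above 20 CPM in both sets, at 28.2 CPM in members and 42.7 CPM in partners (1.51-fold lower, ratio interval 0.55 to 0.79). Adora2a, an adenosine receptor gene, stood at 21.8 and 13.8 CPM, and Fam183b at 12.3 and 23.2 CPM. Gm15417 is antisense to Zbtb7b, and the strand setting used in counting is not given in the sources used here, so its 22.4 and 12.2 CPM are uncertain.

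Among the named genes, those with the highest ratios included several that were more abundant in the TGR library than in the control, all under 1.5 times. Others among the 12 highest stood lower in both sets than in the control library. These were Cenpf (240 CPM in control), Cdca3 (204 CPM), Rrm2 (146 CPM), Racgap1 (102 CPM) and Rrm1 (82.2 CPM). Angptl6, a secreted angiopoietin-like protein (ENSMUSG00000038742, chr9:20873808-20879727), had the highest ratio of the named genes with 50 CPM or more. It stood at 71.6 CPM in members, 48.7 CPM in partners and 5.43 CPM in the control library, and the ratio of members to partners was 1.47 (interval 1.28 to 1.69). An Angptl6 UMI was present in 319 of 690 members (46.2%, interval 42.5 to 50%) and in 233 of 690 partners (33.8%, 30.2 to 37.4%).

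Sqstm1 encodes p62, a receptor of selective autophagy that also stabilises the antioxidant factor NRF2, and stood at 72.3 CPM in members and 52.9 CPM in partners, with 18.3 CPM in control (ratio 1.37, interval 1.19 to 1.57). Pck2, the mitochondrial phosphoenolpyruvate carboxykinase, stood at 65.9 and 51.1 CPM (1.29, 1.12 to 1.49), with 11.7 CPM in the control library. Atf5, a transcription factor of the same stress pathway and of mitochondrial stress, stood at 109 and 86.6 CPM (1.26, 1.13 to 1.41), with 5.02 CPM in control. These 4 genes belong to no single list, and only Sqstm1, Pck2 and Atf5 are members of one.

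Chchd10, a protein of the mitochondrial intermembrane space encoded in the nucleus, lies outside the rule for named genes and was chosen after its values were seen. It stood at 1300 CPM in members, 1059 CPM in partners and 404 CPM in the control library, and the ratio was 1.23 (interval 1.19 to 1.27). At least 1 UMI of it was in 681 members (98.7%) and 650 partners (94.2%). Gm867, one of the 7 genes above, is annotated on the opposite strand with its end 25 bases inside that of Chchd10. It stood at 22 CPM in members, 13.2 CPM in partners and 1.09 CPM in control, and it too is uncertain without the strand setting.

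ATF4 and CHOP bind a composite element with the core TGATGNAA. The 250 bases before the annotated start of 15 genes of this report, Chchd10 among them, were therefore read from RefSeq (GRCm38.p6) and searched for these letters on both strands. Of all 32851 such windows 3.45% hold the motif and 13 hold it 2 or more times (0.0396%). Among the 15 genes it was in Chchd10 (chr10:75932880-75933129, plus strand), with 2 copies that start 85 and 72 bases before the gene, and in Pck2 (chr14:55540016-55540265, plus strand), with 1 copy on the other strand. Both windows are shown because they hold the motif, which is in capitals. The ratios of these genes in Cox6a2-positive cells were 1.23 and 1.29.
Chchd10: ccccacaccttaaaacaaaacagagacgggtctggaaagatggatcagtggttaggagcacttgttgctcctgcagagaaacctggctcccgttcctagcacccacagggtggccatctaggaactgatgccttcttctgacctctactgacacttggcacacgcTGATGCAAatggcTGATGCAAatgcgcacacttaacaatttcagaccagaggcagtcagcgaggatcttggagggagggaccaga
Pck2: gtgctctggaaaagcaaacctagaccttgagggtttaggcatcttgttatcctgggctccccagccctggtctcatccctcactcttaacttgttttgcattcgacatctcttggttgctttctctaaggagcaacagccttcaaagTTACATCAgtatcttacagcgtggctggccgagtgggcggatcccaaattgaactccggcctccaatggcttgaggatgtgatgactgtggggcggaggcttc
The motif was not in the same window of the other genes searched, among them Atf5, Ddit3, Trib3 and Cox6a1. Angptl6, Sqstm1, Cenpf and Rrm2 also lacked it there, and their ratios were higher than those of Chchd10 and Pck2. A match is a description of letters and not a measured binding site.

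The central genes of the integrated stress response differed less. Ddit3 stood at 297 CPM in members, 266 CPM in partners and 12.6 CPM in the control library, a ratio of 1.11 (interval 1.05 to 1.19), and 585 members (84.8%) against 545 partners (79.0%) held a UMI. Trib3, a pseudokinase induced by CHOP, had a ratio of 1.15 (1.05 to 1.26). Atf4 stood at 311 and 292 CPM (1.07), while Asns, asparagine synthetase, stood at 34.9 and 36.5 CPM with an interval of 0.80 to 1.15 that included 1. Chac1, a glutathione-degrading enzyme induced late in the response, was at 5.35 and 6.01 CPM, too few UMIs to be scored. Of the 18 scored genes of the ATF4 target list 2 were higher (11.1%, Atf5 and Pck2, against 2.04% of all genes at that threshold) and 0 lower, with a median log2 ratio of 0.07.

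**Figure D3:**
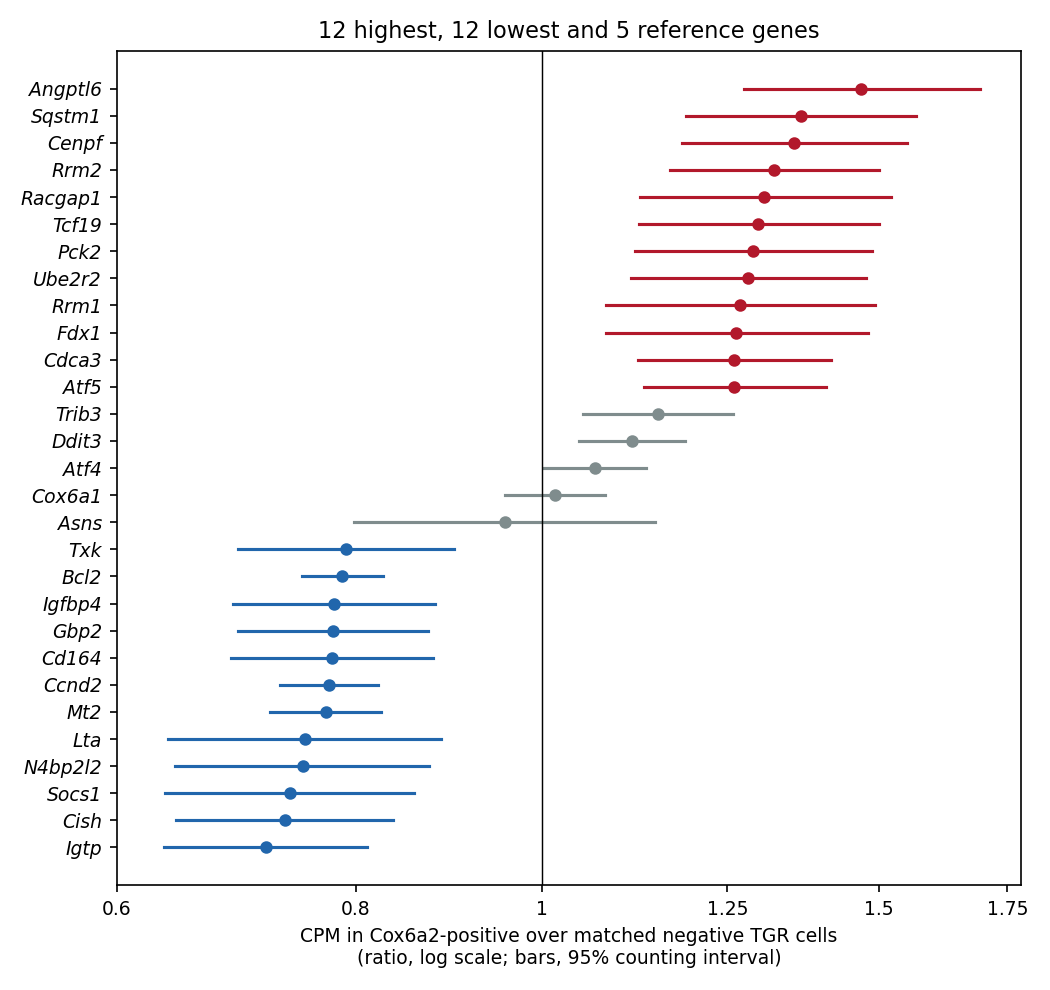
Ratio of CPM in Cox6a2-positive over matched Cox6a2-negative TGR cells (log axis), with 95% counting intervals as bars. Drawn are the 12 genes with the highest ratio (red), the 12 with the lowest (blue) and 5 reference genes (grey). The highest and lowest were taken among genes with 50 CPM or more in either set and an interval that excluded 1, without predicted genes. The ratios run from 0.72 for Igtp to 1.47 for Angptl6, and Cox6a1 sits at 1.02.

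Chaperones of the endoplasmic reticulum mostly had ratios slightly above 1. Of 18 scored genes of this list 17 had a ratio above 1, against 50.4% of all scored genes, and the median log2 ratio was 0.16, but only Creld2 was counted as higher (5.56%, against 2.04% of all genes). Hsp90b1 (GRP94) stood at 249 CPM in members and 213 CPM in partners (1.17), Pdia3, a disulfide isomerase, at 152 and 128 CPM (1.19) and Sdf2l1 at 116 and 95.9 CPM (1.21). Hspa5 (BiP) stood at 177 and 162 CPM, with an interval from 1.00 to 1.18.

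Ferritin and antioxidant genes showed a similar small shift. The light chain of the iron store ferritin, Ftl1, stood at 3244 CPM in members and 2744 CPM in partners (ratio 1.18, interval 1.16 to 1.21), and the heavy chain Fth1 at 1738 and 1491 CPM (1.17, 1.135 to 1.197). Txnrd1, thioredoxin reductase, stood at 49.6 and 40.7 CPM (1.22). Of 14 scored genes in the NRF2 and antioxidant list 12 had a ratio above 1 (85.7%, against 50.4% of all genes), with a median log2 ratio of 0.15, and 1, Sqstm1, was counted as higher (7.14%, against 2.04%).

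Most genes of cell division had ratios above 1, and few were counted. Of 33 scored G2/M genes 31 had a ratio above 1 (93.9%, against 50.4% of all genes) and 6 were counted as higher (18.2%, against 2.04%): Ckap2l, Cenpe, Cenpf, Ndc80, Dlgap5 and Cdca3. With the minimum on the mean of both sets Dlgap5 was no longer scored. The median log2 ratio of that list was 0.24. Cenpf stood at 74.9 CPM in members and 55.3 CPM in partners (ratio 1.35), Cenpe, a kinetochore motor, at 47.3 and 34.6 CPM (1.37), and the proliferation marker Mki67 at 165 and 137 CPM (1.2). Of 38 scored S phase genes 3 were higher (7.89%, against 2.04%), Pola1, Rrm1 and Rrm2, with a median of 0.14; the ribonucleotide reductase subunit gene Rrm2 stood at 86.1 and 65.1 CPM (1.32).

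Phase calls moved with this. Of the members 48.8% were called G2/M (interval 45.1 to 52.6%) and 41.3% G1, and of their partners 43.6% (39.9 to 47.4%) and 46.2%. Between members and partners both called G1, the G2/M list had a median log2 ratio of 0.03, and between those both called G2/M it had 0.16. In the same G1 comparison Angptl6 had a ratio of 1.58 (interval 1.26 to 2.01), Pck2 1.55 (1.198 to 2.03), Sqstm1 1.53 (1.22 to 1.93) and Chchd10 1.28 (1.22 to 1.35). The ATF4 target list had median log2 ratios of 0.15 in G1, 0.01 in S and 0.06 in G2/M. Phases were called from cell cycle genes, many of them in the G2/M list, so that list's values within a phase follow in part from the calls.

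The lowest ratios of the named genes included 2 interferon-induced ones. Igtp, an interferon-induced GTPase, stood at 65.9 CPM in members and 91.9 CPM in partners (1.39-fold lower, ratio 0.72, interval 0.63 to 0.81). Gbp2, a guanylate-binding protein of the same kind, stood at 78.6 and 101 CPM (ratio 0.78). Of 12 scored genes of the interferon list 1 had a ratio above 1 (8.33%, against 50.4% of all genes) and 2 were counted as lower (16.7%, Ifi47 and Igtp, against 1.92%), with a median log2 ratio of -0.16. A UMI of Isg15, a ubiquitin-like interferon-induced protein, was held by 107 members and 109 partners, and one of Rtp4 by 120 and 117.

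Cish and Socs1, feedback inhibitors of cytokine receptors, were also among the lowest. Cish stood at 58.6 CPM in members and 79.8 CPM in partners (ratio 0.73, interval 0.64 to 0.84), and 33.3% of members against 44.1% of partners held a UMI. Socs1 stood at 44.7 and 60.4 CPM (ratio 0.74, 0.64 to 0.86). Ccnd2, cyclin D2, stood at 290 and 374 CPM (0.77), and Bcl2, the survival protein, at 424 and 539 CPM (0.79, 0.75 to 0.83). In the BCL2 family list Bcl2 alone was counted as lower (1 of 8 scored genes, 12.5%, against 1.92%), and Bax stood at 264 and 285 CPM.

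Of 5 scored immediate early genes 3 were lower (60%, against 1.92% of all genes), namely Jun at 16.5 CPM in members and 22.6 CPM in partners, Junb at 42.7 and 54.0 CPM and Nfkbia, the inhibitor of NF-kB, at 70.6 and 89.1 CPM. Jun passed the minimum only through the partners, and with the minimum on the mean of both sets 2 of 4 genes were lower and the median was -0.20 in place of -0.34. Ier2 stood at 42.3 and 42.1 CPM. Lta, lymphotoxin alpha, stood at 37.9 and 50.4 CPM (ratio 0.75), Txk, a kinase of T cell receptor signalling, at 60.9 and 77.0 CPM (0.79), and the death receptor gene Fas at 20.9 and 30.1 CPM (0.69).

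Mt2 had a lower level in members but was found in about as many cells. Mt2, a zinc-binding stress protein, stood at 226 CPM in members and 292 CPM in partners (ratio 0.77), whereas 353 members and 350 partners held a UMI of it. The 10 partners richest in Mt2 gave 25.9% of the partners' Mt2 UMIs, and the 10 richest members 17.6% of the members'. After thinning to 2000 UMIs per cell the log2 ratio of Mt2 was 0.07, the opposite direction.

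No other scored respiratory chain gene was counted as higher or lower. Of the 12 other scored cytochrome oxidase subunit genes 0 were higher or lower, with log2 ratios from -0.07 to 0.07. The paralog Cox6a1 stood at 313 CPM in members and 308 CPM in partners (ratio 1.02, interval 0.96 to 1.08), an interval that excludes a difference of 25% in either direction. Cox7a1, like Cox6a2 an isoform of muscle, was at 7.18 and 5.86 CPM with an interval of 0.79 to 1.91, and the muscle isoform Cox8b had 0 UMIs in both sets. The muscle and contractile gene list had no member that reached 20 CPM, and its 27 genes summed to 28.0 CPM in members, 25.4 CPM in partners and 37.3 CPM in the control library.

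Other energy pathways were as close. Of 12 scored messages of the mitochondrial genome, 60 scored genes of complexes I, III and V, 11 oxidase assembly factors and 15 genes of glycolysis and glucose uptake, 0 were counted in either direction, with median log2 ratios of 0.02, -0.02, -0.06 and -0.04. Of 17 scored genes of the TCA cycle 1 was lower (5.88%, against 1.92% of all genes): Suclg1, a subunit of succinyl-CoA ligase, at 27.6 CPM in members and 35.8 CPM in partners. The mitochondrial message mt-Co1 stood at 7563 and 7405 CPM, and Ldha, lactate dehydrogenase, at 802 and 847 CPM.

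The remaining lists held few counted genes. Ribosome biogenesis had 2 lower genes of 16 (12.5%, Dkc1 and Rrp9, against 1.92%) with a median of -0.07 and 1 ratio above 1 (6.25%, against 50.4%). Single lower genes were Gart among 10 genes of polyamine and one-carbon metabolism (10%), Farsb among 17 tRNA synthetase genes (5.88%) and Fas among 11 p53 targets (9.09%). So were Lta among 3 cytokines and chemokines (33.3%), Igfbp4 among 15 naive and memory genes (6.67%) and Irf8 among 7 effector transcription factors (14.3%). Of all scored genes 1.92% were lower. Sqstm1 was the 1 higher of 15 autophagy and lysosome genes (6.67%, against 2.04% of all genes). Gart, Farsb and Rrp9 were under 20 CPM in members, and Pola1, Ckap2l and Dlgap5 in partners. The lists of the proteasome, heat shock, histones, mitochondrial stress, mitochondrial regulators, fatty acid oxidation, sterol and fatty acid synthesis, FOXO and quiescence, MHC class I presentation, cytotoxic genes, activation and costimulation, inhibitory receptors, snoRNA host genes and nuclear non-coding RNA had 0 in either direction. Gzmb, granzyme B, stood at 429 CPM in members and 461 CPM in partners (0.93), and Tcf7 at 203 and 199 CPM.

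**Figure D4:**
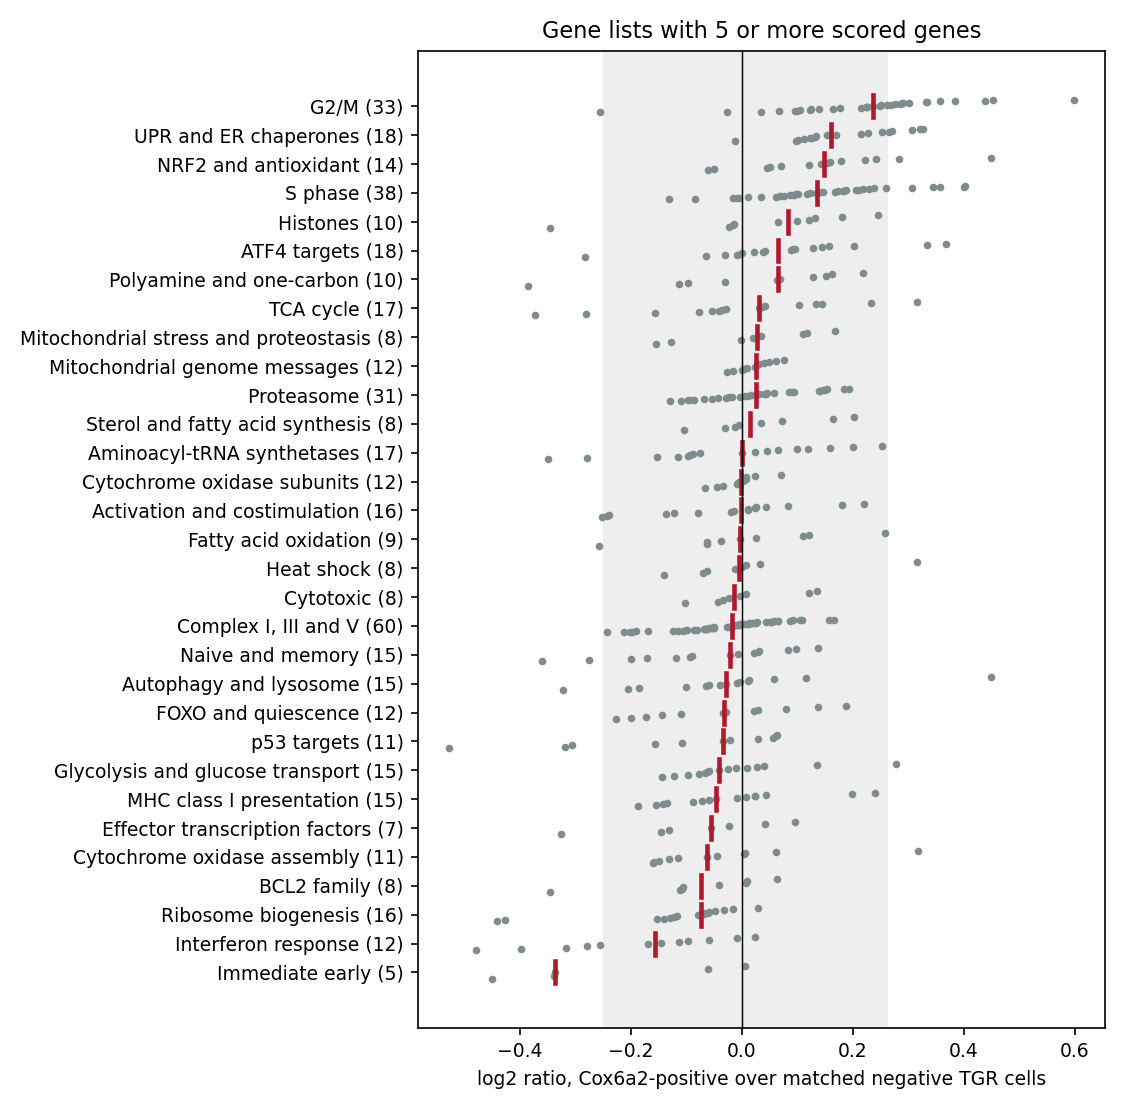
Log2 ratio of Cox6a2-positive over matched Cox6a2-negative TGR cells for each scored gene (grey points) of the 31 lists with 5 or more scored genes, number of scored genes in parentheses, with the list median as a red bar; the shaded band spans the 5th to 95th percentile of all 4317 scored genes. List medians run from -0.34 for the immediate early genes to 0.24 for the G2/M genes.

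The ratios were also taken by the number of Cox6a2 UMIs, which the choice of members used, so they are a description. Members with 1, 2 and 3 or more Cox6a2 UMIs (387, 155 and 148 cells, with medians of 8248, 9004 and 8797 other UMIs) were each compared with their own partners. The ratio of Chchd10 was 1.15, 1.14 and 1.51, and in the last group it stood at 1535 CPM in members and 1013 CPM in partners (interval 1.42 to 1.62, above the intervals of both other groups). Angptl6 had ratios of 1.44, 1.24 and 1.83, Sqstm1 1.23, 1.49 and 1.61, Pck2 1.13, 1.45 and 1.53, and Atf5 1.16, 1.34 and 1.41, with overlapping intervals within each gene. Others went the opposite way, Rrm2 with 1.40, 1.35 and 1.13 and N4bp2l2 with 0.70, 0.79 and 0.85, and Socs1 had 0.74, 0.63 and 0.90, again with overlapping intervals.

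On the low side, Igtp had ratios of 0.79, 0.71 and 0.57, Bcl2 0.81, 0.84 and 0.69, and Jun 0.96, 0.56 and 0.50, with overlapping intervals within each gene. Jun had only 22 UMIs in members with 2 and 22 in members with 3 or more Cox6a2 UMIs. Its level in the partners was 19.7, 24.0 and 28.0 CPM. Cd8a, the CD8 alpha chain, had 0.97, 0.92 and 0.66, and in the group with 3 or more UMIs it stood at 189 CPM in members and 288 CPM in partners (interval 0.56 to 0.76, below the interval of the group with 1 UMI). The partners of the other groups held 249 and 241 CPM of Cd8a, so the partners differed as well. Ddit3 had ratios of 1.19, 1.15 and 0.92, and the interval of the last (0.81 to 1.05) included 1. Its levels were 308, 286 and 279 CPM in members and 258, 249 and 303 CPM in their partners. The chaperone list had median log2 ratios of 0.07, 0.13 and 0.43, and the ATF4 target list 0.10, -0.01 and 0.11.

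**Figure D5:**
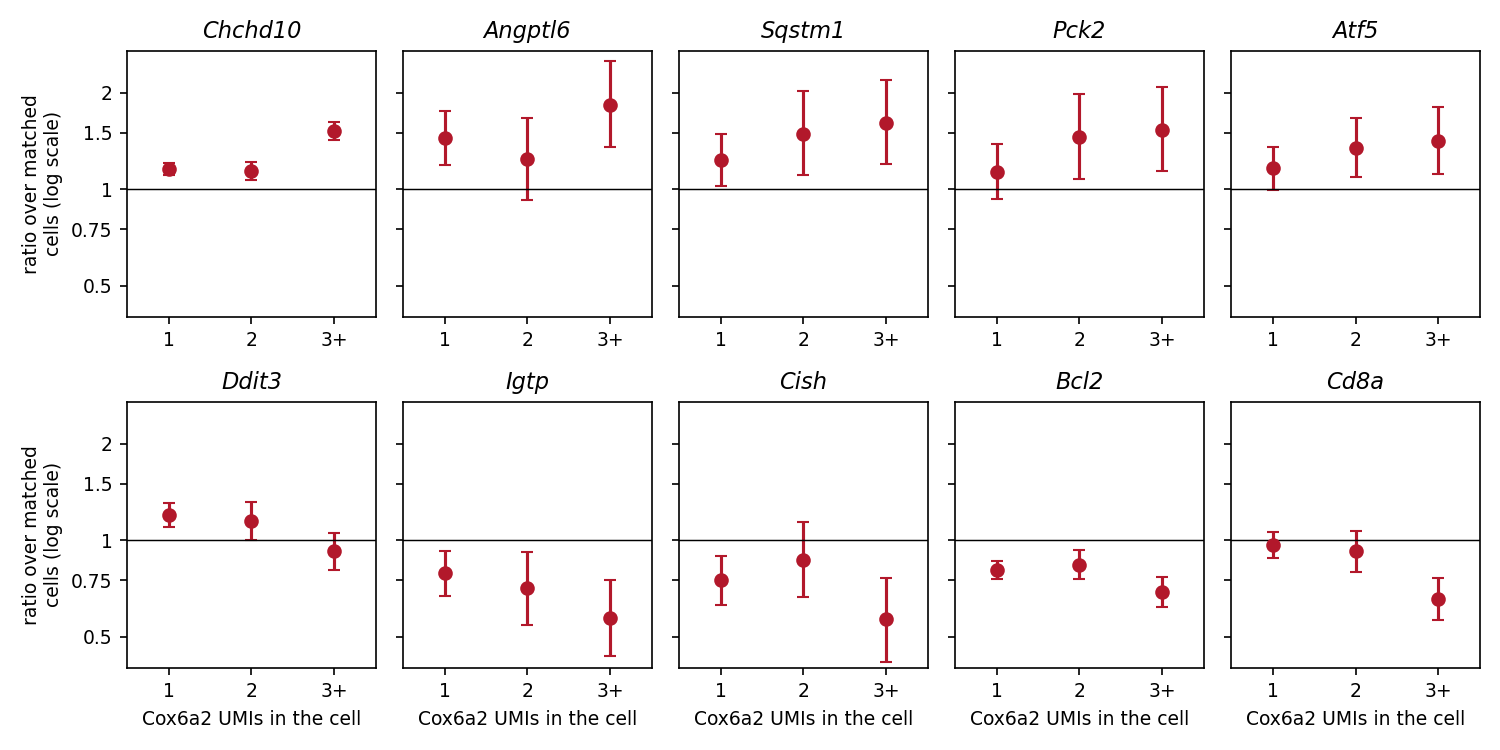
Ratio of CPM over matched Cox6a2-negative cells (log axis) for 10 genes in members with 1, 2 and 3 or more Cox6a2 UMIs, with 95% counting intervals. Chchd10 reaches 1.51 and Cd8a is at 0.66 in the cells with 3 or more, and Ddit3 is at 1.19, 1.15 and 0.92.

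The differences were also taken within 11 groups of TGR cells, made by dividing the same cells by 3 bands of depth, by 3 phases and by the 5 clusters, with new partners from the same group. Chchd10, Angptl6, Sqstm1, Pck2, Atf5, Fdx1 (a mitochondrial ferredoxin) and Ftl1 had ratios above 1 in 11 of 11 groups, and Bcl2 below 1 in 11 of 11 (0.63 to 0.92). Atf4 was above 1 in 11 groups too, but by as little as 1.003. Socs1 and Cd164 were also at or below 1 throughout, but reached 0.999 and 1.00 in a group. Most of these genes were followed because of their ratios in the same cells, which the groups only divide again, so their agreement is a description and no support. The share of all scored genes with such agreement was not computed. Angptl6 ranged from a ratio of 1.04 (interval 0.80 to 1.36) in the mitotic cluster to 1.98 (1.47 to 2.7) in the middle band of depth. Igtp was below 1 in 9 groups, Cish and Gbp2 in 10 each and Mt2 in 8. Cenpf and Cdca3 were above 1 in 9 and Racgap1 and Rrm1 in 8, and the G2/M list had medians of -0.44 in the cluster led by Hspa1a and -0.25 in that led by Ung, against 0.47 in the cluster led by Rtp4.

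Ddit3, Trib3 and Chchd10, picked here after their values were seen, had their highest ratios in the shallowest cells. Among cells with 2505 to 5119 UMIs, 91 members and their partners stood at 342 and 159 CPM of Ddit3 (ratio 2.14, interval 1.57 to 2.98), at 164 and 64.6 CPM of Trib3 (2.51, 1.56 to 4.26) and at 1203 and 633 CPM of Chchd10 (1.90, 1.62 to 2.24). In the deepest band, with 390 members, the ratios were 1.07 (1.00 to 1.15), 1.12 (1.01 to 1.248) and 1.16 (1.12 to 1.203), below the shallowest band's intervals for each gene. Angptl6 in the shallowest band had only 19 and 17 UMIs and a ratio of 1.11 (0.55 to 2.29). The median log2 ratio of the ATF4 target list was 0.23, 0.13 and 0.05 from the shallowest band to the deepest, that of the chaperone list 0.17, 0.16 and 0.17, and that of the tRNA synthetase list -0.16, 0.18 and 0.00.

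Many markers of other cell types were at or near 0, and a few genes carried most of the list sums. Of the 690 members 122 held 3 or more UMIs of other cell type markers. Of all 2546 TGR cells 306 did, these members included, so the share was larger among members. Members were also deeper, and these counts were not matched on depth. Without the 306 cells 12 genes were higher and 8 lower at 1.5 times. Of 12 plasmacytoid dendritic cell markers Siglech, Klk1, Spib, Cd209d, Ptprf and Cadm1 were at 0 UMIs in the members. The others were found: Bst2, which T cells express too, had 939 UMIs in members and 941 in partners, and Irf8 165 and 194. Runx2 had 54 and 62 UMIs, Tcf4 14 and 19, Ccr9 3 and 3, and Ly6d 1 and 1. The list, carried by Bst2, summed to 166 CPM in members and 183 CPM in partners. B cell markers summed to 11.3 and 14 CPM with Pax5 at 0, myeloid markers to 67.1 and 59.7 CPM with Lyz2, Csf1r and Adgre1 at 0, conventional dendritic markers to 36.8 and 39.7 CPM with Flt3, Xcr1 and Clec9a at 0, and CD4 T cell markers to 41.7 and 36.1 CPM. Stroma and endothelium markers summed to 29.2 and 30.5 CPM, with Pecam1 at 28.9 and 30.2 CPM. Erythroid, platelet, neutrophil and mast cell markers summed to at most 0.28 CPM in members. CD8 T cell markers summed to 2130 and 2226 CPM.

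Single markers differed, and of those higher in members all but Derl3 did so through few cells. Among those lower in members were Cd8a, at 225 CPM in members and 256 CPM in partners (ratio 0.88, interval 0.82 to 0.94), and Cd8b1, at 382 and 410 CPM (0.93, 0.88 to 0.98). Lck (0.94), Irf8 (0.80) and Cd79b (0.73) were lower too, with intervals that only narrowly excluded 1. Fcer1g, an Fc receptor chain, had 30 UMIs in 8 members and 7 UMIs in 3 partners (ratio 3.82, interval 1.73 to 10.8), and the MHC class II gene H2-Aa 9 UMIs in 6 members and 1 UMI in 1 partner. Ifitm1, a gene of the fixed set, had 61 UMIs in 19 members and 19 UMIs in 11 partners (2.96, 1.77 to 5.33). Derl3, a protein of endoplasmic reticulum quality control counted among the plasma cell markers, had 81 UMIs in 71 members and 43 UMIs in 40 partners (ratio 1.76, interval 1.2 to 2.62), with Jchain and Tnfrsf17 at 0. No member held more than 3 Derl3 UMIs. The natural killer list summed to 16.2 and 8.42 CPM through Gzma, granzyme A, with 73 UMIs in 15 members and 6 UMIs in 4 partners, and 55 of the 73 were in 1 cell. Ncr1 and Klrb1c were at 0.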

How the data were processed

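The values the authors deposited are raw UMI counts, whole numbers for each gene in each barcode. The submitters' processing notes name Cell Ranger 2.2, Seurat 3 and mm10 without the step each served, and barcode filtering is not given in the sources used here. The files list 27998 genes. The filter on cells was applied to 2548 TGR and 3336 control barcodes. Members and gene lists were chosen with earlier results of these data known. The 38 lists, the markers and the rule for named genes (the 12 highest and 12 lowest ratios at 50 CPM or more with an interval excluding 1, without predicted genes, receptor segments and pseudogenes; from each list the 2 largest changes and the 2 most abundant genes; and a fixed set) are therefore no independent support. Phases (scanpy 1.11.5) were called on both libraries thinned to 1500 UMIs per cell, and clusters (Leiden, resolution 0.5, 2000 variable genes, 30 components, 15 neighbours) on TGR cells alone. UMIs were summed per set, scaled to CPM and compared as stated with the text, and the calculation was tested on simulated data. Gene positions came from GENCODE M21. Alternatives covered matching, thinning, membership, scaling (edgeR 4.0.16, DESeq2 1.42.0) and filters. With 1 library per condition, no replicate could be left out and no p-value is given.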

Additional observations from a re-analysis of the deposited data

Results flagged for a closer look

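The 2 TGR barcodes that were removed for a high mitochondrial share, and that enter no comparison, held 4 Cox6a2 UMIs between them: 1 of 3200 UMIs in a barcode with 11.7% mitochondrial UMIs and 3 of 2782 UMIs in one with 18.6%. The control library had 2 Cox6a2 UMIs in 3127 kept cells and 0 in its 209 removed barcodes.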

How the results depend on the processing

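The counts of 7 higher and 3 lower genes at 1.5 times rest on genes near the 20 CPM minimum and changed with most settings. They were 15 and 14 without matching, 4 and 1 with negatives weighted over 20 bins of depth, 4 and 1 with matching within phase, 107 and 94 with every cell thinned to 2000 UMIs, 42 and 25 for members with 2 or more Cox6a2 UMIs, 32 and 24 with totals that leave out ribosomal protein and mitochondrial genes, 141 and 85 with no minimum, 0 and 0 at 50 CPM, 9 and 5 without the 5% of cells with the most UMIs, 12 and 8 without the cells that hold 3 or more UMIs of other cell type markers, and 30 and 32 with only the 484 pairs within 5% of each other, and 1 and 2 with the 20 CPM minimum on the mean of both sets, the last pair of alternatives chosen after seeing the data. The median log2 ratio of the ATF4 target list was 0.22 after thinning and otherwise lay between 0.04 and 0.12. The share of members was 25.2% without the deepest 5% of cells, 11.9% at 2 or more UMIs and 7.82% after thinning. Of 40 genes followed through 14 alternatives, Mt2 (log2 ratio 0.069) and Mt1 (0.0016) changed direction after thinning, and so did, in some alternatives, Asns (-0.13 to 0.38) and Cox6a1 (-0.08 to 0.11), whose intervals included 1; the others kept their direction. The causes were not tested. No paired analysis was possible because each condition had 1 library. Depth limits membership itself: a cell without a Cox6a2 UMI may hold the transcript.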
